A study of Mus musculus with 12 samples.

Results

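Distal sites that were open in both embryonic fibroblasts and embryonic stem cells of the mouse were examined. They were chosen by their position and by the deposited lists of reproducible peaks: a site lay more than 1 kb and at most 100 kb from the nearest transcription start site (TSS), overlapped no annotated exon, and overlapped by at least 1 bp a peak in each of the 4 lists, which cover both cell types on both sequencing platforms. By this rule 8580 of the 91354 peaks of both cell types in the peak set named for BGI (9.39%) were shared distal sites. The positions and widths of the sites are those of this set, on which both platforms were counted. Chromatin accessibility had been measured by Omni-ATAC-seq, in which the enzyme Tn5 cuts DNA that is not covered by nucleosomes and tags the fragments. The cells, of a C57/Bl6 background and with no further treatment named, were THY1+ cells sorted from fibroblast cultures (MEFs, libraries 1, 2 and 4) and THY1-/SSEA1+/EPCAM+ cells sorted from stem cell cultures (mESCs, libraries 1, 3 and 5). Each of the 6 libraries was sequenced on both platforms, DNBSEQ-G400 (BGI) and HiSeqX10 (Illumina), giving 12 samples in 4 groups of 3.

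Most open chromatin away from promoters is specific to a cell type, because enhancers are opened by the transcription factors that a cell expresses. A smaller class is open in many cell types. Many such sites are bound by CTCF, a zinc finger protein that halts loop extrusion by cohesin and insulates neighbouring genes. Other constitutively open distal sites are enhancers of widely expressed genes or unannotated promoters. AP-1 (dimers of the FOS and JUN families) and TEAD factors are active in fibroblasts, whereas OCT4 with SOX2 (which bind octamer and SOX words) and ESRRB are active in stem cells. ZEB and SNAI repressors bind the E-box word CACCTG, and SP and KLF factors bind GC boxes.

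The CTCF core was found at a larger share of shared sites than of the other sets of sites. It was the only one of 15 motifs searched with a mismatch allowed, and all others were searched as exact words. A match to the CTCF consensus, named here without its letters and with at most 1 mismatch on either strand, was held by 3662 of the 8559 shared sites with a chromosome sequence (42.8%, 95% Wilson interval 41.7 to 43.8%, which covers counting error only). The other 21 shared sites lay on unplaced scaffolds and were not scanned. The share was 8.43% of 17153 distal sites listed in MEFs only, 14.3% of 18347 distal sites listed in mESCs only, 13.8% of 16389 promoter sites in all 4 lists, and 16.5% of all peaks, counting sites with a sequence. An exact match was held by 16.6% of the shared sites, against 1.91% of MEF-only sites, 2.65% of mESC-only sites, 2.97% of the promoter sites and 4.43% of all peaks. Most of the matched sites (3326) held a single match, 318 held 2, 17 held 3 and 1 held 4. Because the core resembles its own reverse complement in part, some of these matches overlap on opposite strands. Counting only matches that do not overlap, 251 shared sites (2.93%) held 2 or more, against 0.291% of MEF-only and 0.79% of mESC-only sites.

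The following CTCF matches from shared sites named in this text are shown because they carry the leading feature of the set. Each line gives the position of the match on GRCm38 and its strand, and the match stands in capitals with 9 bases on either side, read 5′ to 3′ along the strand of the match.
Wnt7b site, chr15:85599051-85599062, plus strand: ccagtagctCCACCAGAGGGCgctctgtag
Dlk1 site, chr12:109394010-109394021, minus strand: gccctcaggCCACCAGGGGGCagaggcggt
Cdkn1c site, chr7:143466498-143466509, minus strand: ggtctctgaCCACCAGGGGGCagaatgact
Gm39228 site, chr8:94186801-94186812, minus strand: tggaggtgaCCACCAGAGGGCagcttagag
Lin28a site, chr4:134036138-134036149, plus strand: attcgatgtCCAGCAGGGGGCgctcgctcc
Psrc1 site, chr3:108389344-108389355, plus strand: tcggcatggCCAGTAGGTGGCaggtttgtt
Bcan site, chr3:87987144-87987155, minus strand: aggctgtgaCCAGTAGAGGGCgctgcagat
Lncpint site, chr6:31075930-31075941, plus strand: tcgtgctggCCACCAGGTGGCggcctcata
Tmem61 site, chr4:106530017-106530028, minus strand: accgagaggCCACCAGGTGGCagcacagac
These 9 matches were exact, with the consensus read on both strands. At the last 2 sites a match with 1 mismatch also stood on the opposite strand, shifted by 1 base.

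The shared site with the most matches lay 9674 bp from the TSS of Gm45185 and 10126 bp from that of Uvrag, an autophagy gene, and was intergenic. Its 4 matches, each with 1 mismatch, stood in the same orientation at spacings of 70, 70 and 64 bp in the order printed below. The stretch chr7:99151402-99151635, minus strand, is shown because the repeated unit is visible in it, with the 4 matches in capitals.
Gm45185 site: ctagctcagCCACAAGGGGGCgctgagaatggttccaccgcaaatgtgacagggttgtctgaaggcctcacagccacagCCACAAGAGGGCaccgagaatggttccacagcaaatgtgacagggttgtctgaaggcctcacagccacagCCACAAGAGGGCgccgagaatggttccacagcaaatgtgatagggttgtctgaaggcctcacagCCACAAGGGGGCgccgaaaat
Levels are given below as counts per 1000000 reads in peaks (CPM). This site had 25.1, 26.4 and 21.5 CPM in the MEF libraries 1, 2 and 4 on BGI and 22.5, 25.1 and 23.1 CPM on Illumina. In the mESC libraries 1, 3 and 5 it had 16, 15 and 16.7 CPM on BGI and 15.3, 14.6 and 14.3 CPM on Illumina. Both platforms gave lower levels in every mESC library than in any MEF library, with a log2 difference of mESC minus MEF of -0.69 ± 0.12 (SE) on BGI and -0.73 ± 0.11 on Illumina.

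Of the other 14 motifs, 6 (AP-1, TEAD, RUNX, ESRRB, ZEB and YY1) had a share at shared sites between those at MEF-only and mESC-only sites. Octamer, SOX and GATA words had a lower share than in either set, and SP/KLF, CRE, NRF1, ETS and E-box words a higher one, as the plot of motif shares shows. For octamer, CRE, ESRRB and YY1 words the interval overlapped that of MEF-only sites. For ETS, E-box, TEAD and RUNX words it overlapped that of mESC-only sites. Each of these words was therefore not separated from that set beyond counting error. The AP-1 word TGACTCA was held by 21.6% of shared sites, 37.9% of MEF-only sites and 15.6% of mESC-only sites. The ZEB word CACCTG was held by 32.1%, 17.4% and 42.6% of the same sets. This word can lie inside a CTCF match, and did so at 459 of the 2751 shared sites that held it (16.7%). At sites without a CTCF match the ZEB share was 26.4% for shared, 16.6% for MEF-only and 41.5% for mESC-only sites. The octamer ATTTGCAT was held by 2.47% of shared, 2.64% of MEF-only and 5.89% of mESC-only sites, and the ESRRB word TCAAGGTCA by 0.958%, 0.665% and 3.17%. TEAD (ACATTCC) and RUNX (TGTGGTT) words were held by 10.9% and 10.5% of shared sites, 19.2% and 16.7% of MEF-only sites, and 10.8% and 10.4% of mESC-only sites.

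Several words are common at promoters. The SP/KLF word GGGCGGGG was held by 10.04% of shared sites, 3.01% of MEF-only, 6.81% of mESC-only and 36.6% of the promoter sites. The ETS word CCGGAAG was held by 4.83% of shared sites, 2.65% of MEF-only, 4.57% of mESC-only and 18.1% of promoter sites. The NRF1 word GCGCATGCG was rare, with 0.444% of shared, 0.163% of MEF-only and 0.229% of mESC-only sites. The YY1 word AAGATGGC was held by 2.82% of shared sites, 2.37% of MEF-only and 3.9% of mESC-only sites. All words were searched on both strands, and a match does not show that the factor was bound. CTCF and AP-1 words were seldom found together: 11.4% of shared sites with a CTCF match also held the AP-1 word (interval 10.5 to 12.5%), against 29.2% of those without one (27.9 to 30.4%).

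**Figure D1:**
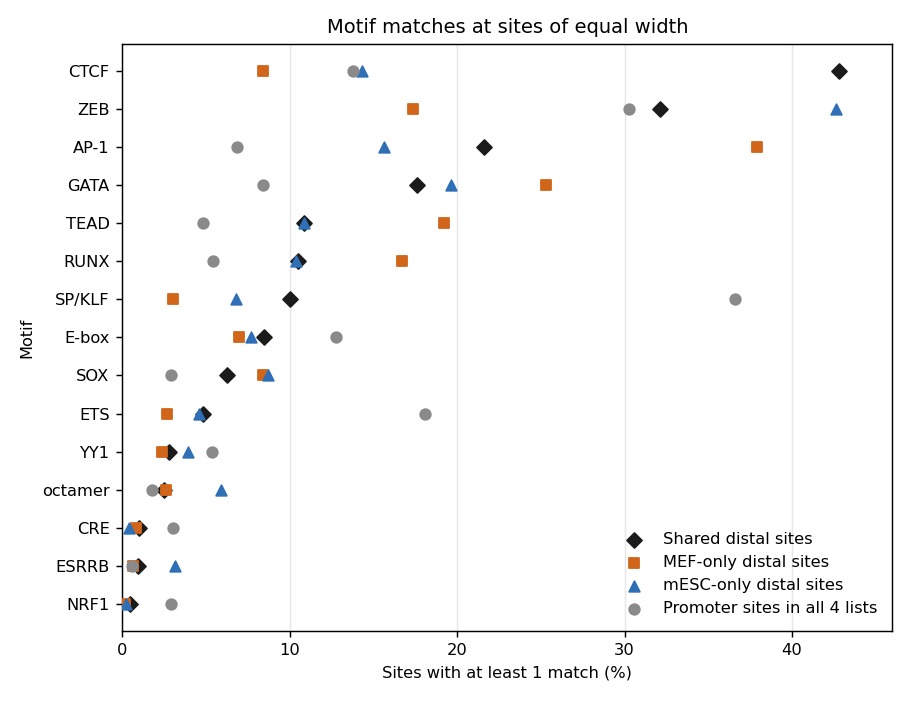
Share of sites (%, x axis) that hold at least 1 match to each of 15 motifs (y axis), with a marker for each of 4 sets of sites. For CTCF the shared distal sites stand at 42.8% while the other 3 sets lie between 8.43 and 14.3%; for AP-1 and ZEB the shared sites fall between the MEF-only and the mESC-only sites.

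Base composition differed between the sets, so the CTCF share was also read within bands of GC content. The median GC content was 51.4% at shared sites, 46.6% at MEF-only sites, 49.4% at mESC-only sites and 62% at the promoter sites. In the fifth of shared sites with the lowest GC content the CTCF share was 52.2%, against 7.97% of MEF-only and 13.2% of mESC-only sites in the same GC range. In the fifth with the highest GC content it was 26.7%, against 10.4% and 12.5%. The share was thus higher at shared sites in the lowest and the highest band alike, and likewise in the 3 bands between, where it ran from 40.7 to 48.5%. Observed over expected CpG was 0.279 at shared sites and 0.743 at the promoter sites.

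The shared sites were all 502 bp wide and lay a median of 8125.5 bp from the nearest TSS. The quartiles of this distance were 3604.75 and 17299.75 bp, and 4869 sites (56.7%) lay within 10000 bp. Inside the span of a gene, and hence intronic, were 3903 sites (45.5%), and 4677 were intergenic. The nearest gene was protein-coding for 5243 sites (61.1%), a lincRNA for 937 and a processed pseudogene for 844. In all, 6258 different genes were the nearest to at least 1 shared site. Neighbouring shared sites were separated by a median of 72611.5 bp, and 3 pairs of neighbours overlapped each other. The CTCF share varied little with position: 41.7% at 1000 to 5000 bp from a TSS, 44.6% at 5000 to 20000 bp and 40.6% beyond, and 41% inside genes against 44.3% between them.

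At the edges of the rule, levels did not change abruptly. The 122 shared sites at 1001 to 1100 bp from a TSS had a median of 12.5 CPM over the 12 samples, and the 137 peaks in all 4 lists at 901 to 1000 bp had 12.2 CPM. The farthest shared site lay 98948 bp from a TSS, and the nearest that was too far lay at 100355 bp. Being listed was graded too: 2113 distal peaks were in exactly 3 of the 4 lists. The 735 that were missing only from the Illumina MEF list had a median of 4.5 CPM in the MEF Illumina samples, against 9.73 CPM at shared sites. The 405 missing only from the BGI mESC list had 5.52 CPM in the mESC BGI samples, against 10.6 CPM. A further 473 shared sites overlapped a peak of some list by less than 50% of their width, the least by 1 bp.

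Within the sites, CTCF matches stood close to the centre, as the plot of match positions shows. Of the 4017 matches at shared sites, 80.3% had their middle within 50 bp of the site centre, where 20.6% would if evenly spread. At MEF-only sites 57.6% did, at mESC-only sites 65.7% and at the promoter sites 53.6%. The median distance from the centre was 22 bp at shared sites, 39 bp at MEF-only, 30 bp at mESC-only and 45 bp at the promoter sites. Of the other words, AP-1 had 50% of its matches at shared sites within 50 bp of the centre, CRE 40.4%, SP/KLF 35.2%, TEAD 34.2%, ZEB 24% and GATA 12.5%.

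**Figure D2:**
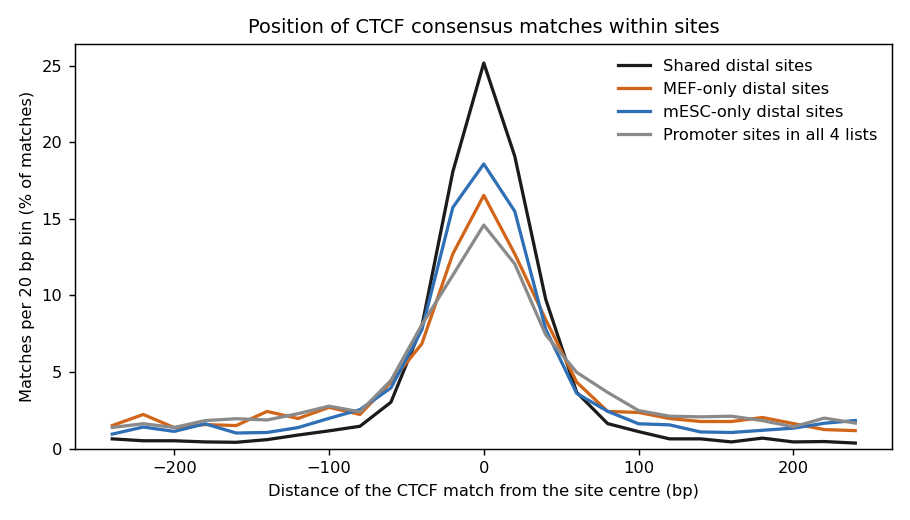
Percent of CTCF consensus matches (y axis) in 20 bp bins of distance from the site centre (x axis, bp) for 4 sets of sites. The central bin holds 25.2% of the matches of shared distal sites and 16.5, 18.6 and 14.6% of those of MEF-only, mESC-only and promoter sites.

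A site can be open in both cell types without being cut at the same place. The summit of a called peak is the base with the highest pileup in 1 sample, and was not used by the rule except through the place of the lists' peaks. At 8313 shared sites (96.9%) every one of the 12 samples had a summit inside the site. Averaged over samples, the summits of MEFs and mESCs lay a median of 14.2 bp apart, with quartiles of 6.17 and 29 bp. For scale, the mean BGI and Illumina summits were 7 bp apart in MEFs and 6.67 bp in mESCs, and libraries of 1 cell type on 1 platform were 11 to 13 bp apart. A MEF and an mESC library on the same platform were 18 to 19 bp apart, which is farther than any pair of libraries of the same cell type. The distance between cell types was smaller at sites with a CTCF match (median 11 bp, with 1.38% of sites over 100 bp) than at sites without one (17.8 bp, with 5.69%). Summits of the same cell type were also closer together at sites with a match: libraries of 1 cell type were 10 to 12 bp apart with a match and 11 to 15 bp without. It was 15.3 bp between the cell types at the promoter sites.

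The summits of both cell types lay close to the CTCF match. Per the study's methods, peaks were summits extended by a fixed length on either side, so a site centre is itself close to a summit. This closeness and that of matches to the site centre are therefore not separate results. In the 6 MEF samples the median distance from the summit to the nearest match was 19.5 to 20.5 bp, and 83.4 to 85.9% of summits lay within 50 bp. In the 6 mESC samples it was 19.5 to 21.5 bp, with 84.2 to 85.2% within 50 bp. The ranges of the cell types overlapped in both measures. Since summits were taken only inside the 502 bp site, larger distances were not seen.

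At shared sites without a CTCF match, in contrast, the place of the summit relative to other words differed between the cell types on both platforms. Where the AP-1 word was present (1428 sites), the summit lay within 50 bp of it at 63.7 to 65.1% of sites in MEFs and 55.2 to 56.4% in mESCs on BGI. On Illumina the shares were 62.7 to 65.6% and 54.5 to 57.7%. The TEAD word (637 sites) had summits within 50 bp at 44.2 to 46.1% of sites in MEFs and 37.5 to 38.8% in mESCs on BGI, and at 44.1 to 45.2% and 38.0 to 39.7% on Illumina. For both fibroblast factors every MEF library was above every mESC library.

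The order was the opposite for octamer, ESRRB, ZEB and SP/KLF words. Around the octamer (142 sites) 16.2 to 16.8% of summits lay within 50 bp in MEFs and 24.5 to 27.9% in mESCs on BGI. On Illumina these were 17.3 to 19.6% and 27.7 to 27.9%. Around the ZEB word (1291 sites) the shares on BGI were 13.1 to 13.5% in MEFs and 20.3 to 20.8% in mESCs. On Illumina they were 12.8 to 13.1% and 20.5 to 21.3%. SP/KLF words (651 sites) also had more nearby summits in mESCs, with 42.3 to 43.8% against 36.6 to 38.9% on BGI and 40.6 to 42.7% against 37.6 to 38.9% on Illumina. Around the ESRRB word, at only 48 sites, the shares were 4.26 to 6.38% in MEFs and 10.4 to 14.9% in mESCs on BGI, and 2.17 to 6.52% and 10.4 to 20.8% on Illumina. For these 4 words the libraries of the cell types did not overlap on either platform, whereas for E-box, YY1 and CRE words they overlapped on both. Around the SOX word (309 sites) they did not overlap on BGI (MEFs 25.5 to 28.2%, mESCs 28.5 to 30.3%) but overlapped on Illumina. For scale, evenly spread CTCF matches would lie within 50 bp of the site centre in 20.6% of cases. That figure was not computed for summits or for these words. Around octamer, ZEB and ESRRB words the MEF shares lay below it. In mESCs the ZEB shares lay near it, most ESRRB shares below it and the octamer shares above it. A higher share in 1 cell type thus does not show that summits gathered at the word. With 3 libraries against 3 an exact permutation test cannot give a two-sided p below 0.10, so no test was made.

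**Figure D3:**
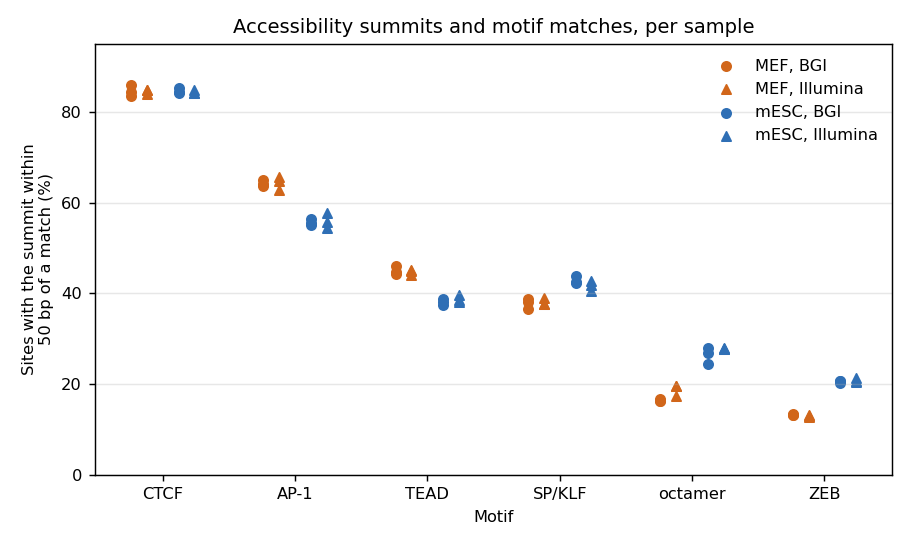
Percent of shared distal sites whose summit lies within 50 bp of a match (y axis) for 6 motifs (x axis). Each point is 1 sample, circles are BGI and triangles Illumina; CTCF is taken over all shared sites with a match and the other motifs over shared sites without a CTCF match. For CTCF the MEF and mESC samples overlap near 85%, whereas for AP-1 and TEAD all MEF samples lie above, and for SP/KLF, octamer and ZEB below, all mESC samples.

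The level of the shared sites was alike in both cell types, which the rule favours. Depth, as reads counted in the combined peak set, was 15860985 to 21831840 per sample. The median shared site had 10.4 to 10.9 CPM in MEFs and 9.93 to 11.1 CPM in mESCs on BGI, and 9.57 to 9.95 CPM and 9.25 to 10.3 CPM on Illumina. Shared sites held 12.1 to 12.2% of the reads in peaks in MEFs and 11.3 to 12.03% in mESCs on BGI, and 11.3% and 10.6 to 11.4% on Illumina. The lowest value on each platform was that of mESC library 3. The cell types themselves matched their labels at marker promoters: all 8 MEF marker genes had a promoter peak that was lower in mESCs, with log2 differences of -4.47 to -1.59, and all 8 mESC markers one that was higher, by 1.39 to 6.12 (edgeR, Benjamini-Hochberg adjusted p under 0.05 for each). Of 6 markers of blood, endothelial and endodermal cells, Ptprc, Adgre1 and Cdh5 had no promoter peak. Sox17 was higher in mESCs by 2.50 and Gata6 lower by a log2 difference of -0.64, and Pecam1 had 8.97 CPM in MEFs and 7.74 CPM in mESCs.

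The membership rule used listing in both cell types, so differences between them at shared sites are given as a description. The fit over all peaks supplies counts of calls, and no p is given for shared sites. On BGI the log2 difference of mESC minus MEF at shared sites had quartiles of -0.58 and 0.38 around a median of -0.12, and ran from -4.40 to 5.38. The difference was under 1 in size at 79.0% of shared sites, 89.9% of promoter sites in all 4 lists and 37% of all peaks. The edgeR fit over all peaks called 5260 of 8580 shared sites (61.3%), 2219 of them higher and 3041 lower in mESCs. Over all peaks it called 84.1%, with 40.9% higher and 43.2% lower. On Illumina 5316 shared sites were called (2394 higher and 2922 lower), beside 84.6% of all peaks, of which 41.2% of peaks were higher and 43.4% lower. Nothing is read from these shares, since the lists chose the sites. The direction of the small differences depended on the scaling. With the down-sampled library depths in place of TMM factors, the BGI median of all peaks went from -0.08 to 0.06, and the calls at shared sites became 2726 higher and 2423 lower on BGI and 2838 and 2405 on Illumina.

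Shared sites with a CTCF match differed less between the cell types than those without. The median size of the log2 difference was 0.40 with a match and 0.60 without on BGI, and 0.39 and 0.59 on Illumina. With 2 or more matches that do not overlap it was 0.35 on either platform. Sites with a match were also lower in level (median 9.25 CPM for a single match, 12.3 CPM for none), so the comparison was repeated within 3 classes of level, each with the same number of sites. In the lowest class (up to 8.90 CPM) the medians on BGI were 0.32 and 0.38, in the middle class 0.45 and 0.64, and in the highest class (from 13.7 CPM) 0.51 and 0.76. The order was the same in each class on both platforms.

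The level of sites with a given word, relative to the median shared site of the same sample, varied by library as well as by cell type. Sites with the AP-1 word were above the median by 0.35, 0.34 and 0.09 (log2 scale) in MEF libraries 1, 2 and 4 on BGI, and by 0.33, 0.32 and 0.07 on Illumina. In mESC libraries 1, 3 and 5 the values were 0.13, -0.05 and 0.07 on BGI and 0.12, -0.07 and 0.03 on Illumina. MEF library 4 thus stood apart from the other MEF libraries on both platforms, and its values fell within the range of the mESC libraries. Sites with the ZEB word lay between -0.15 and -0.14 in the MEF samples on BGI and between 0 and 0.02 in the mESC samples. Sites with the CRE word (88 sites; CREB and ATF factors bind TGACGTCA) were 0.82 to 0.88 above the median in MEFs and 0.25 to 0.28 above it in mESCs on BGI. For ZEB and CRE words the groups did not overlap on either platform, but this was common among the words. Without overlap on either platform, MEFs were also the higher for TEAD, RUNX, E-box and GATA words. In the same way mESCs were the higher for octamer, ESRRB, SP/KLF, YY1 and ETS words. The groups overlapped on both platforms for CTCF, AP-1 and SOX, and on BGI only for NRF1.

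Of the 8 shared sites with the highest mean level, most were nearly equal in both cell types. The site nearest Nsd1, which encodes a histone methyltransferase for H3K36, lay at chr13:55190154-55190655, intergenic and 19127 bp from the TSS. It had 84.7, 84.4 and 87.5 CPM in MEFs and 87.2, 90.2 and 79.5 CPM in mESCs on BGI, and 84.4, 81.3 and 84.7 against 81.4, 85.5 and 78.3 CPM on Illumina. Its groups overlapped, and it was also the most even of all shared sites of at least 5 CPM, with an SD of log2 CPM of 0.06 over the 12 samples. Of the 5 most even sites, those nearest Cystm1 and Gm281 held CTCF matches, and those nearest Nsd1, Hif1an and Gm22715 held none.

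The site nearest Zfp869, at chr8:69716786-69717287 and 6062 bp from the TSS, had the highest mean level, with 105 to 129 CPM in MEFs and 104 to 120 CPM in mESCs. The site nearest Fbrs, at chr7:127477664-127478165 and 1034 bp from the TSS, held a CTCF match and had 88.1 to 103 CPM in MEFs and 85.9 to 97.9 CPM in mESCs. In both sites the cell types overlapped. The site inside Mnt, a repressor of the MYC network, at chr11:74831935-74832436 and 1015 bp from the TSS, held 3 SP/KLF words. It had 118 to 130 CPM in MEFs and 88.9 to 98.5 CPM in mESCs, with a log2 difference of -0.44 ± 0.08 on BGI and no overlap between the groups. The sites nearest Scd2 and Zfp395 had log2 differences of -0.15 ± 0.09 and 0.03 ± 0.09 on BGI.

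A pair of the highest sites shared a stretch of sequence, and their levels are therefore uncertain. The site inside Gphn, nearest the pseudogene Gm48224, at chr12:78350674-78351175, and the site 10979 bp from Hic2, at chr16:17222092-17222593, were identical over 165 bases in 3 runs of at least 20 bases, the longest of 58 bases. The stretches are shown because the copy is visible in them, on the plus strand with the word CACCTG or its complement in capitals.
Gm48224 site, chr12:78350875-78351053: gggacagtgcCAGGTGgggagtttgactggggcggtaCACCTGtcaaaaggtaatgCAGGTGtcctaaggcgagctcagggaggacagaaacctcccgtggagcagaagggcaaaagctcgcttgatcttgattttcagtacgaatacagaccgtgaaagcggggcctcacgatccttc
Hic2 site, chr16:17222337-17222514: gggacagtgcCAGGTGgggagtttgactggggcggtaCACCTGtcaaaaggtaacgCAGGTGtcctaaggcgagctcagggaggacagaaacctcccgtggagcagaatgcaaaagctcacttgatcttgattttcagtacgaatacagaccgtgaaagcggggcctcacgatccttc
The letters resemble the large ribosomal RNA, which is named here from general knowledge and was not compared with a reference. The Gm48224 site had 32.8 to 46.6 CPM in MEFs and 132 to 164 CPM in mESCs, and the Hic2 site 43.9 to 60.8 CPM and 126 to 143 CPM. Another shared site with a copy (longest shared run 104 bases), 18094 bp from Gm43980 on chromosome 6 and chosen after its values were seen, had 15.7 to 21.1 CPM in MEFs and 30.9 to 43.7 CPM in mESCs. All 3 were higher in every mESC sample than in any MEF sample. Only uniquely mapped reads had been kept, but whether reads of other copies were placed at these sites was not tested. Among all shared sites, 26 belonged to 18 pairs at separate places that shared at least 100 stretches of 30 bases, and 1076 (12.6%) shared at least 1 such stretch with another shared site.

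Sites with several CTCF matches were not all alike. The site nearest Psrc1 (2 matches that do not overlap) had 16.9 to 22.7 CPM in MEFs and 19 to 24.4 CPM in mESCs, and the site nearest Tmem61 17.5 to 22.1 CPM and 18.9 to 20.1 CPM. In both the cell types overlapped on Illumina but not on BGI, where the Psrc1 site was the lower and the Tmem61 site the higher in MEFs (log2 differences of 0.08 ± 0.10 and -0.17 ± 0.11). The X-chromosomal site nearest Gm15065 had 59.1 to 64.5 CPM in MEFs and 44.3 to 52 CPM in mESCs. The site nearest Bcan, which encodes a brain proteoglycan, had 50 to 59.5 CPM and 42.2 to 47.1 CPM. Larger differences were seen at the site nearest Lncpint, a lincRNA induced by p53, with 47.5 to 58.2 CPM in MEFs and 16.3 to 26 CPM in mESCs. The site 16507 bp from Wnt7b, which encodes a secreted WNT ligand, had 28.9 to 34.2 CPM in MEFs and 6.26 to 8.51 CPM in mESCs. Besides its CTCF matches the Wnt7b site held an AP-1 and a CRE word, shown because both stood at a site far higher in MEFs.
Wnt7b site, AP-1 word, chr15:85599232-85599238, plus strand: ctctagggaTGACTCAtggggacca
Wnt7b site, CRE word, chr15:85599357-85599364, plus strand: tgtacgctgTGACGTCAccccctgag
Its log2 difference was -2.16 ± 0.13 on BGI and -2.18 ± 0.12 on Illumina.

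The 5 shared sites with the largest difference in each direction, among those with a mean of at least 5 CPM, were in 7 of 10 cases only at the edge of a listed peak of the other cell type. The site inside Gm15270, at chr10:24590616-24591117 and 4325 bp from Ccn2, a matricellular growth factor gene, had 0.678 to 1.01 CPM in MEFs and 27 to 37.8 CPM in mESCs. It overlapped the MEF lists by 40 bp on either platform. The site 20124 bp from Rab12 had 3.93 to 4.75 CPM in MEFs and 40 to 49 CPM in mESCs and overlapped the MEF lists by 38 and 28 bp. The site inside Rasa3, which encodes a GTPase-activating protein, had 22.4 to 34.6 CPM in MEFs and 1.18 to 1.77 CPM in mESCs and overlapped the mESC lists by 63 and 70 bp. The sites nearest Gm12984, 2010111I01Rik, Ttc27 and Gm21123 likewise overlapped a list by at most 161 bp on the side where they were low. Of the 297 shared sites with a difference of at least 2 in size on BGI, 74 (24.9%) overlapped some list by less than 50% of their width, against 5.51% of all shared sites.

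The other 3 overlapped a peak of every list by at least 349 bp. The site inside Mgat5b, a glycosyltransferase gene, at chr11:116940547-116941048, had 4.79 to 6.52 CPM in MEFs and 66.5 to 79.9 CPM in mESCs. The site nearest Gm39228, 7236 bp from the metallothionein gene Mt1, had 5.17 to 8.43 CPM in MEFs and 69.6 to 81.3 CPM in mESCs. The site nearest Gm19510, at chr15:59759574-59760075, had 55.5 to 76.7 CPM in MEFs and 4.56 to 7.38 CPM in mESCs, a log2 difference of -3.49 ± 0.14 on BGI. It held a pair of AP-1 words, and the Rab12 site an ESRRB word, which are shown as examples of words at sites with a large difference.
Gm19510 site, AP-1 word, chr15:59759804-59759810, plus strand: cacaccctcTGACTCAccctcccgg
Gm19510 site, AP-1 word, chr15:59759852-59759858, plus strand: acagccctcTGACTCAggcactgtg
Rab12 site, ESRRB word, chr17:66479790-66479798, plus strand: ataggccgtTCAAGGTCAtccttaacc
The Mgat5b and Gm39228 sites, although far higher in mESCs, each held an AP-1 word as well. Whether these words bear on the direction of the difference was not tested.

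**Figure D4:**
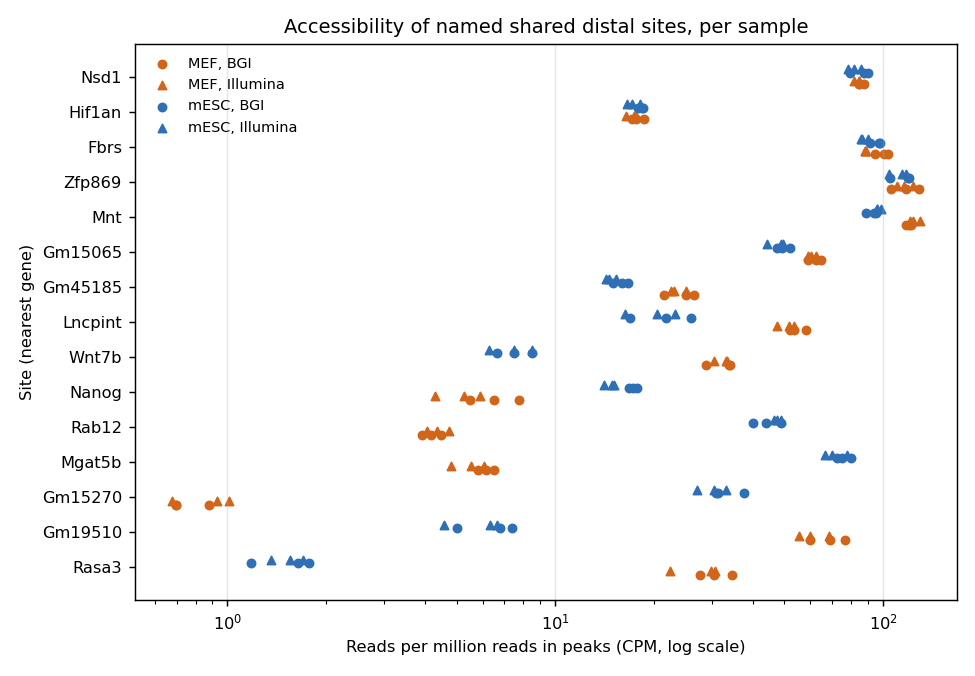
Accessibility (CPM, log axis) of 15 named shared distal sites (y axis, by nearest gene) in the 12 samples; orange is MEF, blue mESC, circles BGI and triangles Illumina. The samples of both cell types coincide at the Nsd1 and Hif1an sites, while at the Gm15270 site the MEF samples lie at about 1 CPM and the mESC samples between 27 and 37.8 CPM.

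Shared sites near genes of each cell type were examined next. Of 18 pluripotency genes, 4 were the nearest gene of 7 shared sites, of which 5 were called higher and 1 lower in mESCs (edgeR on BGI; over all shared sites 2219 and 3041 of 8580, and over all peaks 40.9% and 43.2%). Since the lists chose the sites, nothing is read from the counts or medians of this and the other gene lists. Their median log2 difference was 0.59, beside -0.12 over all shared sites and -0.08 over all peaks. The site 12351 bp from Nanog, a core pluripotency factor, at chr6:122719919-122720420, had 5.49, 6.51 and 7.77 CPM in MEFs and 17.2, 17.8 and 16.8 CPM in mESCs on BGI. On Illumina it had 5.27, 4.3 and 5.91 against 14.1, 15.2 and 14.9 CPM. No values overlapped, and the log2 difference was 1.33 ± 0.16 on BGI and 1.46 ± 0.16 on Illumina. Sites in an intron of Esrrb and 17033 bp from Lin28a, each with a CTCF match, had differences of 0.57 ± 0.13 and 0.72 ± 0.19. The site 1151 bp from Klf4 had -0.40 ± 0.17.

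Of 18 mesenchymal genes, 9 were nearest to 14 shared sites, of which 3 were called higher and 5 lower in mESCs, with a median difference of -0.16. The site 3047 bp from Pdgfra, the fibroblast PDGF receptor, had 14.4 to 18.3 CPM in MEFs and 6.96 to 9.72 CPM in mESCs. The site 45902 bp from Twist2 held a CTCF match and had 8.66 to 12 CPM in MEFs and 2.96 to 4.78 CPM in mESCs. By contrast, the sites inside Prrx1 and Snai1, which encode mesenchymal transcription factors, had differences of 0.47 ± 0.19 and 0.42 ± 0.21, and the site inside Tead1 0.13 ± 0.15. Of 10 sites near 4 of 9 AP-1 genes, 2 were called higher and 3 lower in mESCs, with a median of -0.14. The site 18170 bp from Fos had 57.4 to 67.9 CPM in MEFs and 50.4 to 58.3 CPM in mESCs. The site 2017 bp from Jund had 7.26 to 10.2 CPM in MEFs and 22.4 to 26.4 CPM in mESCs, and the site inside Atf3 5.95 to 7.72 CPM and 18.3 to 22.5 CPM.

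Near 19 genes of imprinted and insulator loci there were 8 shared sites at 6 genes, 6 of them with a CTCF match, and 3 were called in each direction, with a median difference of 0.07. The site inside Peg3, a paternally expressed zinc finger gene, at chr7:6727207-6727708, held a CTCF match and a pair of YY1 words, shown because the letters around the repeated word are alike.
Peg3 site, YY1 word, chr7:6727301-6727308, plus strand: tggccaacaAAGATGGCgccaatgaa
Peg3 site, YY1 word, chr7:6727423-6727430, plus strand: tggccaacaAAGATGGCgccagaggg
It overlapped the MEF lists by 18 and 33 bp only. It had 13.1 to 16.3 CPM in MEFs and 35.7 to 54.2 CPM in mESCs, where library 3 was the highest on both platforms (54.2 and 52.4 CPM). The site 34977 bp from Rasgrf1 held 3 AP-1 words and had 16.5 to 31.8 CPM in MEFs and 2.93 to 8.26 CPM in mESCs, with library 3 the lowest among the mESCs. The site 58588 bp from Dlk1 had 18.3 to 23.1 CPM in MEFs and 6.38 to 10.8 CPM in mESCs. Of 13 genes of chromatin architecture, among them CTCF, cohesin and its loaders and regulators, Smc3 and Pds5a had 1 shared site each. Their differences were 0.28 ± 0.14 and 0.72 ± 0.12 on BGI and 0.59 ± 0.13 and 0.95 ± 0.10 on Illumina. Near 10 housekeeping genes there were 9 sites, 2 called higher and 3 lower, with differences of -0.70 to 0.57 and a median of -0.04.

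Called peak intervals were narrower at CTCF sites. Their median width was 668 to 753 bp over the 12 samples at shared sites with a match and 886 to 1067 bp at those without, and the former was the smaller in every sample. At promoter sites in all 4 lists it was 1527 to 1852 bp. Shared sites with a match were also lower in level (median 9.25 CPM for a single match, 12.3 CPM for none). Widths were not compared within classes of level. The median fold enrichment over the genome background, a ratio given by the peak caller, was 15.1 to 17.8 at shared sites in MEFs and 14.7 to 16.9 in mESCs.

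Both platforms read the same libraries, which allows each library to be its own control. In all 6 libraries shared distal sites took a larger share of the reads in peaks on BGI than on Illumina. The difference was 0.872, 0.913 and 0.817 percentage points in MEF libraries 1, 2 and 4 and 0.627, 0.689 and 0.716 points in mESC libraries 1, 3 and 5. In the peak set called from Illumina data it was 0.706 to 1.02 points, again in favour of BGI in all 6. The same libraries held less of their reads at the promoter sites on BGI (40.1 to 45.3%) than on Illumina (42.6 to 48.4%). Over the 6 libraries the median log2 ratio of BGI to Illumina was 0.09 to 0.13 at shared sites and 0.05 to 0.08 over all peaks. A median ratio toward BGI was therefore not particular to shared sites.

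The ratio of BGI to Illumina followed GC content at shared sites, as the plot by GC content shows. The sites were divided into 10 classes of nearly equal size. In the class with the lowest GC content (median 43%) the median log2 ratio was 0.12 to 0.19 over the 6 libraries, and in the class with the highest (median 61.8%) it was -0.06 to -0.03. Across shared sites Spearman's rho of the ratio with GC content was -0.26 to -0.24 in MEFs and -0.22 to -0.21 in mESCs. This is a description over sites that share a library, and no p is given.

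**Figure D5:**
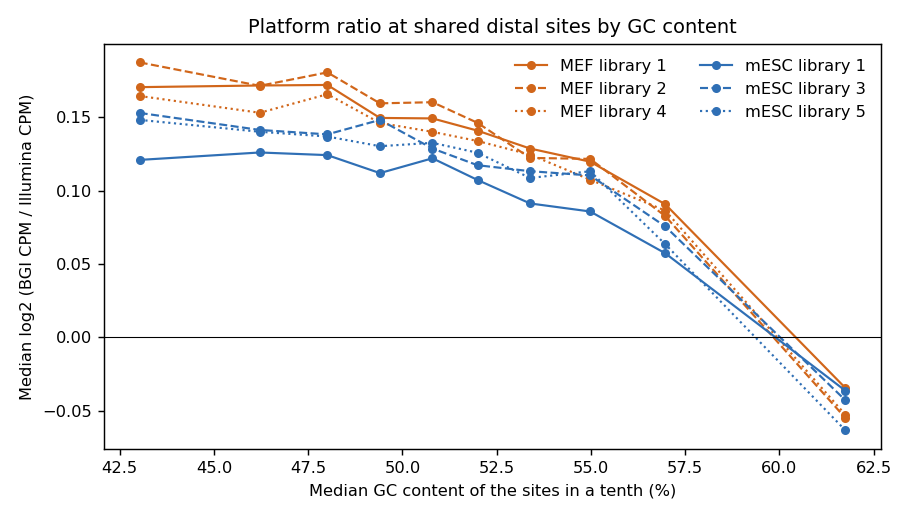
Median log2 ratio of BGI to Illumina CPM (y axis) in 10 classes of shared distal sites by GC content (x axis, median GC % of the class), with 1 line for each of the 6 libraries. All 6 lines lie above 0 up to a median GC content of 57% and below 0 in the highest class. Over all peaks of the set the median ratio was 0.05 to 0.08.

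Single shared sites were tested between platforms without and with the library as a block. Without it, edgeR called 49 shared sites in MEFs (4 higher on BGI), beside 3.99% of all peaks tested (34 peaks higher), and 20 in mESCs (3 higher on BGI), beside 2.05% (18 peaks higher). With the library as a replicate block, 1127 were called in MEFs, 776 higher and 351 lower on BGI. That is 13.1% of shared sites, beside 17.8% of all peaks tested, with 4.92% higher and 12.9% lower. In mESCs 775 were called, 470 higher and 305 lower, or 9.03% beside 15.6%, with 3.47% higher and 12.1% lower. The lists of both platforms chose the sites, so nothing is read from these shares. The counts without the block changed when a library was left out, which leaves 2 samples in each group. In MEFs 0 shared sites were called without library 1 or 2 (197 and 178 at an unadjusted p under 0.05) and 139 without library 4. In mESCs 0 were called without library 1 or 5 (259 and 131) and 16 without library 3. Over all peaks, 0, 0 and 5619 were called without MEF library 1, 2 and 4, and 1, 1276 and 0 without mESC library 1, 3 and 5. Why the counts changed was not tested. DESeq2 called 56 of 6113 and 34 of 5741 shared sites that its filter kept, beside 3629 and 2273 of the 41762 peaks it kept in all. With a GC correction and no block, 4 shared sites were called in MEFs (3 higher on BGI), beside 76 of 87043 peaks (69 higher), and 1 in mESCs (0 higher on BGI), beside 3 of 83518 peaks (1 higher). When each library in turn was left out of the fit with the block, 630 to 1000 were called in MEFs (fewest without library 2, and 649 without library 1) and 409 to 536 in mESCs (409 without library 3, 518 without library 5). With a GC correction added to the block, 664 shared sites were called in MEFs (457 higher on BGI) and 408 in mESCs (269 higher). Over all peaks 8240 of 88763 and 5736 of 85430 were then called, and 4652 and 3075 of these were higher on BGI, where the block alone had 4371 of 15797 and 2966 of 13308.

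The 3 sites with the largest platform ratio in each direction and cell type were then examined. The site nearest Top2b, inside Rarb at chr14:16448538-16449039, had the largest ratio toward BGI, with 52.3, 58.2 and 48.1 CPM on BGI and 27.5, 33.5 and 25 CPM on Illumina in MEFs. In mESCs it had 21.9, 31.1 and 23.4 CPM on BGI and 12.5, 18.5 and 13.5 CPM on Illumina. Its GC content was 59.2%. In the fit with the library block, the ratio on the log2 scale was 0.82 ± 0.05 for MEFs and 0.72 ± 0.07 for mESCs. The next in MEFs, another site near Gm45185 and the site nearest Tmem231, had a GC content of 65.1 and 51.8%. The 3 sites with the largest ratios toward Illumina in MEFs, nearest Rcc2, Gm8178 and Pax3, had a GC content of 79.9, 78.1 and 76.1% and ratios of -0.93 ± 0.08, -0.84 ± 0.08 and -0.80 ± 0.11. In mESCs the site inside Il31ra, with a GC content of 49.4%, had the largest ratio toward Illumina (-0.85 ± 0.05), with 23.3 to 28.3 CPM on BGI and 41.2 to 46 CPM on Illumina. The other 2, nearest Gm12974 and Gm8178, had a GC content of 75.3 and 78.1%. Toward BGI in mESCs, the sites nearest Ttc27 and Defb29 followed the Top2b site, with 46.8 and 44.0%. The Ttc27 site had only 1.77 to 2.8 CPM on BGI and 1.12 to 1.72 CPM on Illumina in mESCs, and its ratio of 0.63 ± 0.24 was not called.

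Whether the platform difference itself differed between the cell types was tested by the interaction over all 12 samples. Without the block it called 0 shared sites, beside 0% of all peaks, by edgeR and also by DESeq2 (90 and 35 shared sites had an unadjusted p under 0.05). With the replicate block it called 18, all with a larger BGI to Illumina ratio in mESCs, beside 0.386% of all peaks. These calls depended on the scaling, since RLE size factors with the block gave 0 (521 at an unadjusted p under 0.05), and TMM set the median interaction over all peaks at 0.11 where RLE set it at -0.01. The fit with the block called 0 shared sites without MEF library 1 or mESC library 3 (724 and 529 at an unadjusted p under 0.05), 3 without MEF library 2, 2 without mESC library 1 or 5, and 18 without MEF library 4.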

How the data were processed

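Omni-ATAC-seq of 6 libraries, each on 2 platforms, was analysed from the authors' files. Per the study's methods, the authors aligned reads to GRCm38 (mm10) with Bowtie2, kept uniquely mapped reads without duplicates, down-sampled to 60 M (MEF) or 45 M (mESC) reads, and called peaks per sample with MACS2. The deposited tables hold raw read counts per peak, without normalization. The deposited peak calls give the fold enrichment as a ratio and the −log10 of a p-value and q-value per summit. The deposited lists hold positions only. Columns of the count tables without a platform name were taken as Illumina.

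Members were found against GENCODE M21, and sequence was read from the RefSeq GRCm38 genome. Members, motifs and gene lists were chosen with earlier results of these data known. Named sites were, by rule, the 8 highest and the 8 with the most CTCF matches, counting overlapping ones. Ties among the 17 sites with 3 matches were broken by mean level. Also named were the 5 most different between cell types in each direction and the 5 most even (mean of at least 5 CPM). The rest were the 3 with the largest platform ratio in each direction and cell type, and the highest site nearest each listed gene. Replicates were separate libraries. Tests used quasi-likelihood fits in edgeR 4.0.16 under R 4.3.3 (TMM, default expression filter, Benjamini-Hochberg adjusted p under 0.05 over all peaks), with DESeq2 1.42.0 as an alternative. On simulated data with 200 peaks changed by 1 log2 unit, 62.5% were recovered for mESC against MEF on BGI and 71% on Illumina (91354 peaks each), 49% for BGI against Illumina in MEFs (87017 peaks), 72.5% in mESCs (83479 peaks) and 27% for the interaction (91354 peaks), all without the block. Library numbers pair the samples across platforms by design: deviations from group means correlated at 0.38 to 0.58 (MEF) and 0.37 to 0.53 (mESC) within a library and at most -0.01 between libraries. Per-sample log2 values used a pseudocount of 0.1 CPM.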

Additional observations from a re-analysis of the deposited data

Results flagged for a closer look

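A platform difference that itself differed between the cell types was called at 18 shared sites in the fit with the library block, beside 353 of 91354 peaks in all (0.386%), by a test of the difference between the groups. The ratio of BGI to Illumina was the larger in mESCs at all 18 and at 346 of the 353 peaks. The median interaction over all peaks was 0.11 with the TMM scaling used here and -0.01 with RLE size factors, so this direction depends on the scaling. The lists that chose the sites cover both platforms and both cell types, and nothing particular to the shared sites is read from the count. At the site nearest Fsip1, at chr2:118179524-118180025, the interaction was 0.70 ± 0.14 (edgeR adjusted p = 0.0178). In fits of each cell type alone, whose scaling factors differ from those of the joint fit, MEFs had a log2 ratio of -0.32 and mESCs one of 0.28. In the same fits these were -0.02 and 0.57 at the site nearest Sdk2, and 0.03 and 0.48 at the site nearest Nptn. With RLE size factors in the same fit, without MEF library 1 or mESC library 3, and in the fit without the block, edgeR called 0 shared sites (521, 724, 529 and 90 at an unadjusted p under 0.05), and DESeq2 without the block also called 0 (35). Groups of 3 samples were not examined for outlying samples.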

How the results depend on the processing

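The number of shared sites stayed within 1.5 times under all 4 alternatives, at 8107 to 9552. The CTCF share was 16.6% for exact matches, 44.3% for sites that overlapped each list by at least 50% of their width, and 42.7% in the Illumina peak set. The median summit distance was 14.7 bp on BGI alone and 15 bp on Illumina alone, and 14.4 to 14.8 bp when a library was left out. For mESC against MEF, a required log2 difference of at least 1 left 1802 calls on BGI and 1811 on Illumina, and no other alternative moved either count by over 1.5 times. Leaving out a library gave 4811 to 5289 calls on BGI and 4819 to 5260 on Illumina. Between platforms in MEFs, the replicate block gave 1127 calls, the block with RLE size factors 1337, the GC offset 4 and the block with it 664; leaving out a library gave 0 to 139 without and 630 to 1000 with the block (649 without library 1). In mESCs these were 775, 856, 1 and 408, with 0 to 16 and 409 to 536 (518 without library 5), and DESeq2 gave 34. The interaction gave 18 calls with the block and 0 to 18 when a library was left out of that fit (3 without MEF library 2, 2 without mESC library 1 or 5). The block with RLE size factors and the block with a library left out were chosen after seeing the data. No paired analysis was possible for mESC against MEF because the cell types share a single library number, which names different cells. The causes of these changes were not tested.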
